A study of Mus musculus with 11 samples.

Results

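The immediate early response genes described here were 10 listed transcripts: Fos, Fosb, Jun, Junb, Egr1, Egr2, Ier2, Atf3, Klf2 and Klf4. All 10 were found, by Ensembl identifier, among the 28222 genes of the count table. They were measured by polyA RNA sequencing of cultured mouse bone mesenchymal stem cells (MSCs) in 11 libraries that the labels place in batches A, B and C. There were 4 libraries of young MSCs in batch A, 2 of young and 2 of old MSCs in batch B, and 3 of old MSCs in batch C. Young mice were 3 to 5 months old and old mice were 18 to 22 months old. Every culture, of either age, was kept at 2% O2 in αMEM with 10% FBS and antibiotics, and no library had been given a stimulus or drug according to the labels. The methods of the study describe C57BL/6N mice and sorting of CD45-, TER-119-, CD140a+ and Sca-1+ cells for an oxygen comparison, and the labels do not repeat this for the libraries by age. What sets the batches apart (a culture, an extraction or a sequencing run) is not given in the labels.

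Immediate early genes are switched on within minutes when a resting cell meets serum, growth factors, stretch or stress, without any need for new protein. Kinases of the ERK, p38 and JNK cascades act on factors that already sit on their promoters, such as serum response factor with its ternary complex partners and CREB, and the resulting mRNAs are short-lived. Most of the products are transcription factors that pass the signal on to a later wave of genes. In cells of the bone and stroma the AP-1 factors among them take part in osteoblast growth and differentiation. The same transcripts are also well known to rise while tissue is dissociated or cells are harvested.

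In the 3 batch C libraries all 10 genes stood above every library of batches A and B. The share of all genes with this order was not computed. Batch C lay wholly above the batch B old libraries alone for 38.8% of all tested genes. The summed level of the 10 genes was 3741 to 3948 CPM (counts scaled to library size with TMM factors) in batch C old MSCs. It was 283 to 348 CPM in batch A young, 289 to 334 CPM in batch B young and 274 to 286 CPM in batch B old MSCs. Fosb and Fos differed the most between old MSCs of batches C and B, 449-fold and 147-fold in the ratio of means, and Atf3 the least, 1.77-fold. Young and old MSCs of batch B, the only batch with both ages, did not separate in the same way, and none of the 10 genes passed the test for age.

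The AP-1 genes encode subunits that pair through leucine zippers, a Fos protein with a Jun protein. Fos was measured at 5.87, 3.88, 5.04 and 3.09 CPM in the batch A young libraries, at 4.69 and 4.08 CPM in batch B young, at 7.47 and 4.34 CPM in batch B old, and at 885, 889 and 835 CPM in batch C old. The lowest batch C library stood 112-fold above the highest library of the other batches. Between old MSCs of batches C and B the fitted log2 difference of Fos was 7.20 (SE 0.17, adjusted p = 7.67e-11, edgeR's quasi-likelihood test). Fosb, a close relative of Fos, was measured at 2.88, 4.05, 3.22 and 3.82 CPM in batch A young, at 3.39 and 2.25 CPM in batch B young, at 1.35 and 1.602 CPM in batch B old, and at 641, 692 and 655 CPM in batch C old. Its log2 difference of 8.80 (SE 0.12, adjusted p = 1.18e-12, edgeR) ranked 1 among the 15651 genes tested, and that of Fos ranked 8. No library held an intermediate level of either gene.

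**Figure D1:**
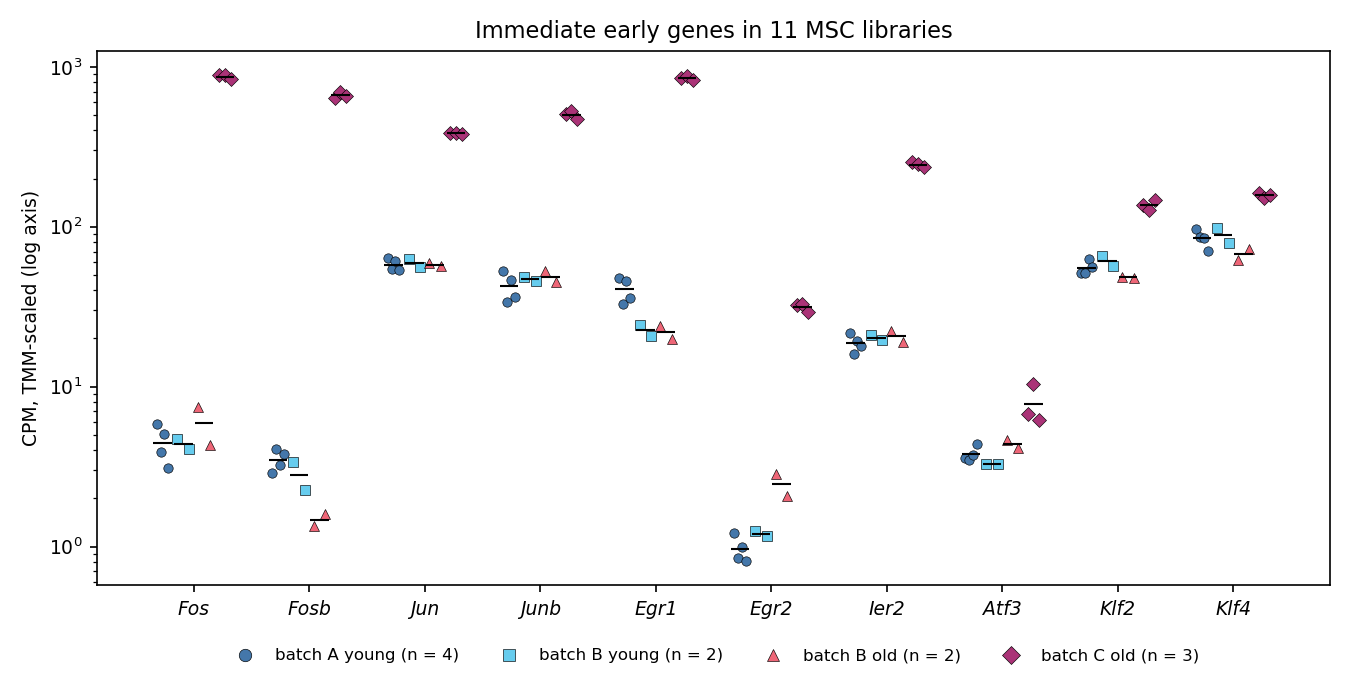
Level of each of the 10 genes in the 11 libraries, in TMM-scaled CPM on a log axis, with 1 point per library, colour and shape for the group, and a bar at each group mean. The 3 batch C old libraries (diamonds) lie above all other libraries for every gene, by 112-fold for Fos and 1.33-fold for Atf3 from the lowest batch C library to the highest other one. The share of all genes with this order was not computed.

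The 250 bases before the RefSeq start (GRCm38.p6) are shown for 4 of the 8 members with a matched window, to show where TGACG and the CArG box lie in them. All 4 windows hold TGACG, and Jun, the matched member without it, is not shown. Capitals mark TGACG or its complement (the core of the CREB and ATF site) and, in Egr2 alone, the CArG box bound by serum response factor. The windows are Fos at chr12:85473640-85473889 (+ strand), Fosb at chr7:19310046-19310295 (- strand), Junb at chr8:84978749-84978998 (- strand) and 1 of the Egr2 starts at chr10:67537619-67537868 (+ strand).
Fos: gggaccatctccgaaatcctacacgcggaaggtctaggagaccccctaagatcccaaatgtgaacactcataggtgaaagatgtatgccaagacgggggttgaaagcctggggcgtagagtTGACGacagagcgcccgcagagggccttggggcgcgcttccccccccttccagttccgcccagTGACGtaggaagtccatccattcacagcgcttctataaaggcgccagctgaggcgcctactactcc
Fosb: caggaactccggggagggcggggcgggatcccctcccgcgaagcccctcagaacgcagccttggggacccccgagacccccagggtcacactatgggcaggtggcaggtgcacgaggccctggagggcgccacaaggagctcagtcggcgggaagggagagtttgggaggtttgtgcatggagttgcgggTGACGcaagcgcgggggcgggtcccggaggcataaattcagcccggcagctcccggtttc
Junb: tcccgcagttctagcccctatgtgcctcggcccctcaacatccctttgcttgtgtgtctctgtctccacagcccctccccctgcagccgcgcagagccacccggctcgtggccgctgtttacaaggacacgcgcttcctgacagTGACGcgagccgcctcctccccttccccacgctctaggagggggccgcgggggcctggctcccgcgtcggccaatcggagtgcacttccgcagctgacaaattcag
Egr2: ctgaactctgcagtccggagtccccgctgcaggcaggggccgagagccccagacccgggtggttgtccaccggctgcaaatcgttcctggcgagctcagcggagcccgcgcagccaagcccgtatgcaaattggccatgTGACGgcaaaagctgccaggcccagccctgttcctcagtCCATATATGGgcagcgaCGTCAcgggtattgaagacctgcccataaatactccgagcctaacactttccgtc

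Windows from 250 bases before to 50 bases after the start were matched for 8 of the 10 genes, all but Egr1 and Ier2. These 8 genes had 12 windows, because Egr2 had several. A gene was counted when any of its windows held the motif, while the shares given are of single windows. Counts and shares are therefore not on the same scale. TGACG, searched on both strands, was present for 7 of these 8 (Atf3, Egr2, Fos, Fosb, Junb, Klf2 and Klf4), and 20.8% of the 32851 promoter windows of the genome table held it. Counted from the start base as 0, it began at -129 and -66 in Fos, at -60 in Fosb and at -106 in Junb. The CArG box was found for Egr2 alone, beginning at -72 in the window shown above, and 1.63% of all windows held one. Bases further upstream than 250 were not searched, so for the other genes this says nothing about sites there. GGGCGG, the core of Sp1 and KLF sites, was present for 7 of the 8 and in 35.7% of all windows. For Egr2 it lay in other windows than the one shown. TATAAA, also searched, was present for 2 of the 8 (Fos and Junb) and in 13.6% of all windows. The full CREB site TGACGTCA (1.79% of windows), the AP-1 site TGANTCA (7.81%) and the EGR site GCGTGGGCG (0.612%) were in none of the 8, which says only that these letters are not in these windows.

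Jun and Junb, the dimer partners, started from a higher level and differed less. Jun was measured at 63.4, 54.1, 60.9 and 53.8 CPM in batch A young, at 62.6 and 55.9 CPM in batch B young, at 59.1 and 56.95 CPM in batch B old, and at 386, 386 and 382 CPM in batch C old. The log2 difference between batches C and B was 2.73 (SE 0.07, adjusted p = 1.49e-10, edgeR). Junb was measured at 52.9, 33.7, 46.3 and 36.6 CPM in batch A young, at 48.4 and 45.9 CPM in batch B young, at 52.7 and 44.9 CPM in batch B old, and at 508, 531 and 469.7 CPM in batch C old. Its log2 difference was 3.36 (SE 0.10, adjusted p = 3.79e-10, edgeR). Within the 8 libraries of batches A and B neither gene separated any group from another, so that batch C alone stood apart. Atf3, a stress-induced partner of Jun proteins that often acts as a repressor, was the least changed member. It was measured at 3.601, 3.46, 3.72 and 4.39 CPM in batch A young, at 3.28 and 3.27 CPM in batch B young, at 4.65 and 4.14 CPM in batch B old, and at 6.77, 10.4 and 6.16 CPM in batch C old. The log2 difference of 0.82 (SE 0.23, adjusted p = 0.00883, edgeR) fell to 0.57 without batch C replicate 2, the highest library, where the gene still passed the test.

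The EGR proteins are zinc finger factors that bind GC-rich promoters. Egr1 was measured at 47.7, 32.9, 45.8 and 35.7 CPM in batch A young, at 24.3 and 20.6 CPM in batch B young, at 24.1 and 19.96 CPM in batch B old, and at 850.4, 880.2 and 825 CPM in batch C old. The log2 difference between old MSCs of batches C and B was 5.27 (SE 0.10, adjusted p = 3.71e-11, edgeR). Egr1 was also the only member called between young MSCs of batches B and A. Egr2, the lowest member in both young groups, was measured at 1.22, 0.84, 0.99 and 0.81 CPM in batch A young, at 1.25 and 1.16 CPM in batch B young, at 2.83 and 2.07 CPM in batch B old, and at 32.3, 32.7 and 29.2 CPM in batch C old. Its log2 difference was 3.67 (SE 0.15, adjusted p = 2.98e-09, edgeR). Behind the Egr2 values of batches A and B stood only 10 to 42 counts per library, and a count of 10 carries an exact Poisson 95% interval of 0.40 to 1.55 CPM in batch A young replicate 2, which covers counting error only. In batch C the gene had 402 to 549 counts, and its intervals there lay wholly above those of all other libraries.

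Ier2, a small nuclear protein induced by growth factors, was measured at 21.7, 16.0, 19.3 and 17.95 CPM in batch A young, at 20.9 and 19.6 CPM in batch B young, at 22.4 and 19.0 CPM in batch B old, and at 252.5, 247 and 235 CPM in batch C old. The log2 difference was 3.56 (SE 0.09, adjusted p = 1.49e-10, edgeR). Klf2 and Klf4 are Krüppel-like factors that many resting cells express, and Klf2 is best known from endothelium under flow. Klf2 was measured at 51.5, 51.2, 62.8 and 56.2 CPM in batch A young, at 65.9 and 56.6 CPM in batch B young, at 48.8 and 48.1 CPM in batch B old, and at 138, 127 and 146 CPM in batch C old. Klf4 was measured at 97.0, 86.2, 85.5 and 70.9 CPM in batch A young, at 98.8 and 79.4 CPM in batch B young, at 62.2 and 72.6 CPM in batch B old, and at 163, 151.5 and 158 CPM in batch C old. For these 2 genes the log2 differences were 1.496 (SE 0.08, adjusted p = 1.61e-08, edgeR) and 1.22 (SE 0.08, adjusted p = 9.28e-08, edgeR). Both were thus higher in every batch C library, by far less than the Fos and EGR genes.

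Between old MSCs of batches C and B, at the same labelled age, all 10 genes were called higher at an adjusted p below 0.05. That comparison moved much of the transcriptome, with 64.7% of the 15651 tested genes called in either direction and 32.1% called higher. Of the calls over all genes 49.6% were higher, or 62.9% when libraries were scaled by total counts, which moved the median of all genes from 0.02 to 0.22 and left all 10 members called higher. The groups did not overlap for any of the 10 genes, and over all tested genes batch C lay wholly above batch B for 38.8%. In size the members differed from all genes more than in the share called. Their median log2 difference was 3.46 against 0.02 over all genes. Of the 10 genes, 7 differed by more than 2 log2 units against 5.26% of tested genes, and 3 by more than 5 log2 units against 0.55%. The members were chosen with earlier results of these data known, so these values describe them and are not a test. The central 95% of all tested genes lay between -2.43 and 2.77. In bulk RNA, more RNA per cell and a larger share of cells with it cannot be told apart. The labels do not say whether replicates came from separate mice or cultures, so the p-values measure the spread between these libraries, which may be technical.

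**Figure D2:**
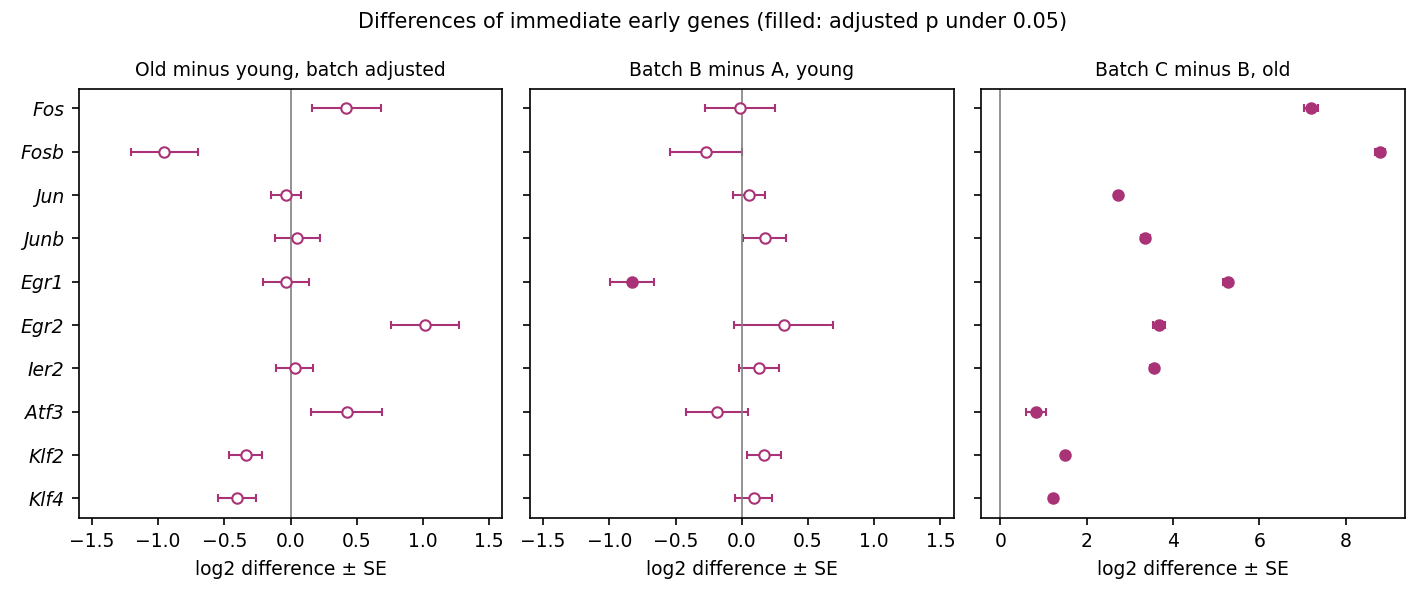
Log2 difference with its SE for each of the 10 genes in 3 comparisons, old minus young with batch in the fit (11 libraries), batch B minus A in young MSCs (6 libraries) and batch C minus B in old MSCs (5 libraries), where filled points passed an adjusted p of 0.05. The axis of the last panel is wider, and its 10 points lie between 0.82 and 8.80 while those of the other panels stay between -0.95 and 1.01.

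Per kilobase of transcript, the scale on which genes can be set beside each other, the order of the members was different in batch C. In batch A young MSCs the order ran from Klf2 (30.0 ± 2.94 CPM per kb, SD, n = 4), Klf4 (28.0 ± 3.54), Junb (23.4 ± 4.90) and Jun (18.2 ± 1.52), over Ier2 (12.3 ± 1.57) and Egr1 (9.05 ± 1.63), to Fos (2.12 ± 0.58), Atf3 (1.91 ± 0.21), Fosb (0.92 ± 0.14) and Egr2 (0.33 ± 0.06). Neighbours among the first 4 genes overlapped between libraries, as did Ier2 with Egr1 and Fos with Atf3. In batch C old MSCs Fos came first (413 ± 14.2 CPM per kb, SD, n = 3), ahead of Junb (278 ± 17.1), Egr1 (190.0 ± 6.16), Fosb (175 ± 7.03), Ier2 (161 ± 5.96) and Jun (121 ± 0.64). Klf2 (74.2 ± 5.07), Klf4 (52.0 ± 1.901), Egr2 (10.6 ± 0.65) and Atf3 (3.92 ± 1.16) followed, and no neighbours overlapped. The Krüppel-like genes that led the list in young MSCs were the seventh and the eighth in batch C. The order in both groups of batch B was close to that of batch A, with Junb before Klf2 and Egr2 before Fosb in the old libraries.

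**Figure D3:**
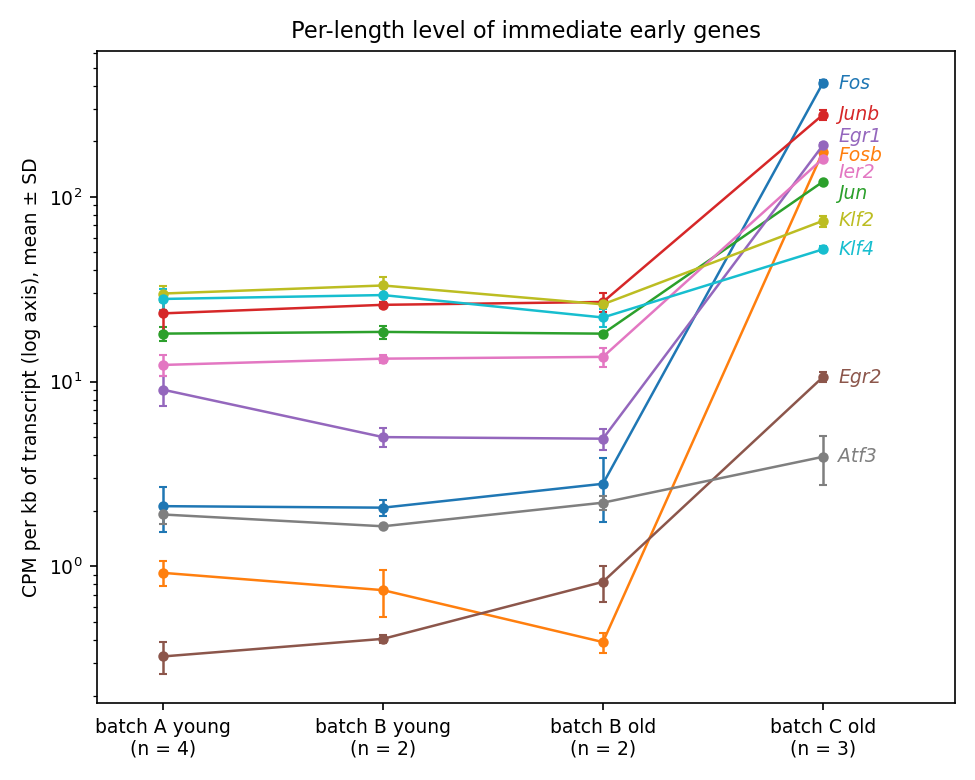
Mean level per kilobase of transcript with its SD in each group, on a log axis, with a line for each gene. Lines only link the values of 1 gene. They keep nearly 1 order in batch A young, batch B young and batch B old and another in batch C old, where Fos stands at 413 CPM per kb against 2.80 in batch B old.

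Age could be estimated only within batch B, where 2 young and 2 old libraries shared a batch, with batches A and C adding to the estimate of the spread. None of the 10 genes passed the test, where 2.23% of the 16132 tested genes were called, and 4 had an unadjusted p below 0.05, as had 16.1% of all tested genes. Egr2 was higher in both old libraries than in both young ones, with a log2 difference of 1.01 (SE 0.26, adjusted p = 0.0538, edgeR). Its 95% intervals for counting error reached 1.86 and 1.85 CPM in the young libraries, began at 1.41 CPM in batch B old replicate 2, which overlapped them, and began at 2.04 CPM in batch B old replicate 1, which did not. Fosb was lower in both old libraries, with a log2 difference of -0.95 (SE 0.25, adjusted p = 0.0626, edgeR). The Fosb levels rested on 20 and 24 counts in the old and on 65 and 33 counts in the young libraries. These 2 genes thus lay on opposite sides, and close to the threshold, which the choice of tool or filter moved across. DESeq2 and limma each called 1 of the 10 genes, Fosb. Over all tested genes they called 584 and 370, against 360 with edgeR. In batch B alone, without the spread of batches A and C, neither gene was close to the threshold. Adjusted p was then 0.389 for Fosb and 0.356 for Egr2 (edgeR).

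The Krüppel-like pair was lower in both old libraries of batch B without passing the test. Klf2 had a log2 difference of -0.34 (SE 0.12, adjusted p = 0.175, edgeR) and Klf4 one of -0.40 (SE 0.14, adjusted p = 0.163, edgeR). Both, and Fosb, were called without batch B young replicate 2, where the calls over all genes went from 360 to 2007. Without batch B young replicate 1 the log2 differences shrank to -0.23 for Klf2 (adjusted p = 0.549, edgeR), -0.24 for Klf4 (adjusted p = 0.599, edgeR) and -0.60 for Fosb (adjusted p = 0.475, edgeR). Atf3, at 0.42 (SE 0.27, adjusted p = 0.46, edgeR), was higher in both old libraries, and Fos, at 0.42 (SE 0.26, adjusted p = 0.448, edgeR), overlapped between the ages. Junb (0.05, SE 0.17), Ier2 (0.03, SE 0.14), Jun (-0.03, SE 0.11) and Egr1 (-0.03, SE 0.17) had log2 differences smaller than their errors. The groups were wholly apart for 5 of the 10 genes, against 39.7% of all tested genes. A fit without batch, with all 6 young against all 5 old libraries, called 8 of the 10 genes higher with age (all but Klf2 and Klf4), where 9.33% of all tested genes were called higher, with log2 differences of 6.96 for Fosb and 3.94 for Egr1. In that fit 3 of the 5 old libraries are those of batch C, so that age and batch cannot be told apart.

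Between young MSCs of batches B and A, again at the same labelled age, 1 of the 10 genes was called, while 18.1% of the 14840 tested genes were. Egr1 was lower in both batch B libraries (24.3 and 20.6 CPM) than in all batch A libraries (32.9 to 47.7 CPM), with a log2 difference of -0.83 (SE 0.17, adjusted p = 0.00709, edgeR). A correction for transcript length and GC content reduced it to -0.48 (adjusted p = 0.0657, edgeR) and called Klf2 instead (0.38, adjusted p = 0.0221). Without batch B young replicate 2 the Egr1 difference was -0.72 (adjusted p = 0.0826, edgeR). The other 9 members had log2 differences from -0.27 (Fosb) to 0.32 (Egr2), and the groups overlapped for all of them but Atf3. The groups were thus wholly apart for 2 of the 10 genes, Egr1 and Atf3, against 40.9% of all tested genes. The gap between batches A and B was thus small for these genes beside that between batches B and C.

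Within groups the replicates showed a shared order for some of the genes. For 6 of the 10, Fos, Jun, Junb, Egr1, Egr2 and Ier2, both batch A young replicates 1 and 3 were above both replicates 2 and 4, an order that 17.7% of all tested genes had. The same 6 genes also had replicate 1 above replicate 2 in both groups of batch B, and 6.81% of all tested genes had all of these orders. For Junb this meant 52.9 and 46.3 against 33.7 and 36.6 CPM in batch A. The order was noticed in the data and is a description of these libraries, whose numbers the labels do not link across groups. Fosb, Atf3, Klf2 and Klf4 did not share it.

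Other genes of the immediate early wave were read from a list of 46 symbols, of which 45 were in the table and 44 were tested between batches C and B. Of these, 30 were higher (32.1% of all tested genes were), 7 were lower and 7 were not called, with a median log2 difference of 0.72 against 0.02 over all genes. Nr4a1, an orphan nuclear receptor, was 5.55 log2 units higher (SE 0.12, adjusted p = 4.46e-11, edgeR), from 6.34 ± 0.75 CPM (SD, n = 2) to 299 ± 24.1 CPM (SD, n = 3). Egr3, a paralogue of Egr1, was 5.49 log2 units higher (SE 0.18, adjusted p = 9.4e-10, edgeR). Zfp36, which binds and destabilises AU-rich mRNAs, was 5.23 log2 units higher (SE 0.12, adjusted p = 7.02e-11, edgeR), from 13.6 ± 2.26 to 509.6 ± 36.8 CPM. Nfkbiz, an atypical IκB protein, and Btg2, an antiproliferative gene, rose by 3.50 (SE 0.12) and 2.94 (SE 0.10) log2 units. Cebpd, a C/EBP factor, was lower in batch C (-0.70, SE 0.07, adjusted p = 3.68e-06, edgeR), and so was the growth regulator Myc (-0.30, SE 0.08), which was picked after its value was seen. In batch C 10 of the 44 genes were more than 2 log2 units higher, against 5.3% of all tested genes. This list, like the members, was chosen with earlier results of these data known, so its shares are a description and not a test.

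**Figure D4:**
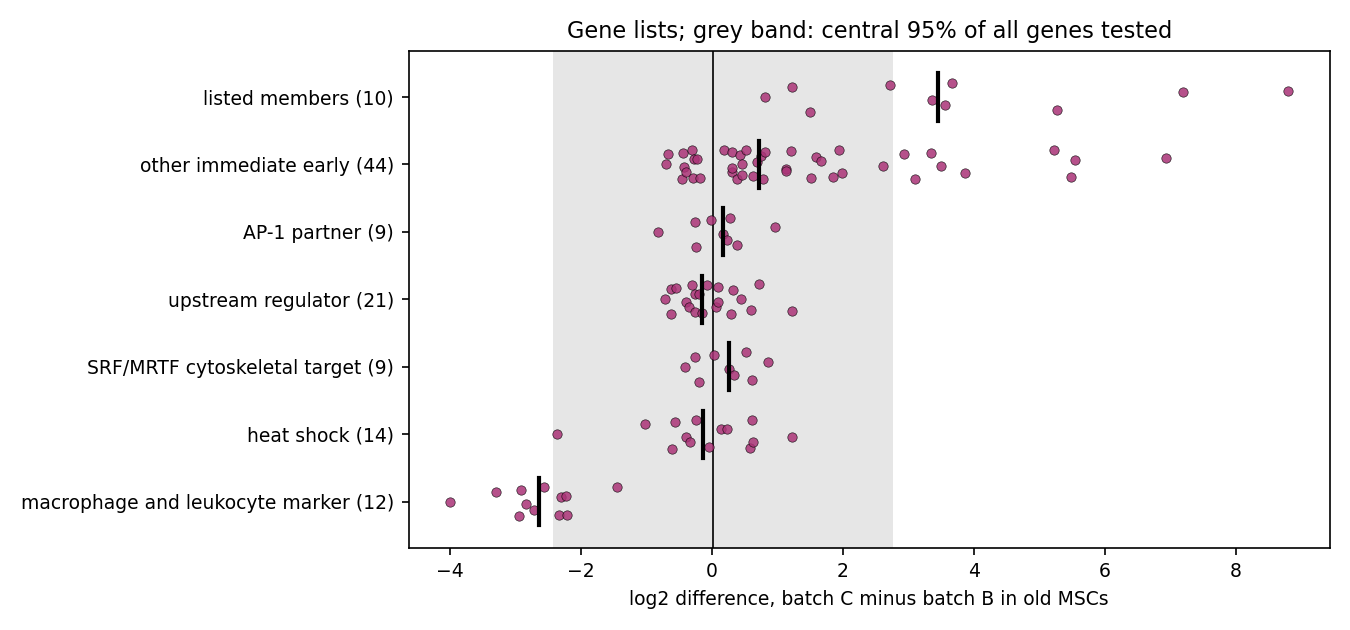
Log2 difference between batch C and batch B in old MSCs for the genes of 7 lists, with 1 point per tested gene, a thick bar at each list's median, a thin line at the median of all tested genes and a grey band for their central 95%. The 10 immediate early genes centre on 3.46, the other immediate early genes spread from -0.70 to 6.94, and the AP-1 partners and upstream regulators stay within the band.

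Genes that act with or before the members were called in both directions. Of 12 AP-1 and bZIP partners, 9 were tested, 4 were higher and 3 lower in batch C, where 64.7% of all tested genes were called in either direction, and their log2 differences ran from -0.81 to 0.97 with a median of 0.17. Fosl1 and Fosl2, the Fos relatives that respond later to growth signals, had log2 differences of -0.01 (SE 0.17, adjusted p = 0.947, edgeR) and -0.24 (SE 0.10, adjusted p = 0.0415, edgeR). Jund, a Jun gene expressed in most resting cells, was 0.39 log2 units higher (SE 0.09), and Atf4, the factor of the amino acid stress response, was lower (-0.81, SE 0.07, adjusted p = 5.59e-07, edgeR). Fosl1, Fosl2 and Jund were named after their values were seen. Among 21 upstream kinases and factors, 6 were higher and 10 lower, with log2 differences from -0.72 to 1.23 and a median of -0.14. Srf was 0.60 log2 units higher (SE 0.07), Mef2c 1.23 (SE 0.11), and Map2k2, a MAP kinase kinase, was lower (-0.63, SE 0.06). Srf and Mef2c were likewise picked after their values were seen. Of 9 cytoskeletal targets of serum response factor, 4 were higher and 3 lower, with a median of 0.27 log2 units.

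Heat shock genes, which respond to unfolded protein, were called in both directions. Of 14 listed, 5 were higher and 7 lower in batch C than in batch B, with a median of -0.14 log2 units. Over all tested genes 32.1% were called higher and 64.7% in either direction. The mitochondrial co-chaperonin Hspe1 was lower by the most (-2.36, SE 0.07, adjusted p = 6.97e-10, edgeR), and the constitutive chaperone Hspa8 was lower as well (-1.01, SE 0.07). The stress-inducible Hspa1a, picked after its value was seen, was 1.23 log2 units higher (SE 0.16), at 5.13 CPM in batch B old and 12.03 CPM in batch C old. With age, 1 of the 14, Hspa1b, was called (0.78, SE 0.14, adjusted p = 0.00718, edgeR), while 0 of the 44 other immediate early genes tested were (6 at an unadjusted p below 0.05, edgeR). The shares of all tested genes for age were 2.23% called and 16.1% at an unadjusted p below 0.05 (edgeR). Between young MSCs of batches B and A, 8 of 42 other immediate early genes were higher in batch B, among them Plk2 (0.88, SE 0.16), Tiparp (0.87, SE 0.17), Errfi1 (0.84, SE 0.17) and Cebpd (0.79, SE 0.14), and 2 were lower, including the clock gene Per1 (-0.65, SE 0.15). Of all 14840 tested genes 1393 were higher in batch B, and 18.1% were called in either direction.

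The genes outside the 10 whose profile over the 11 libraries was nearest to that of Fos, by the root mean square difference of centred log2 CPM, were Nr4a1 (0.78 log2 units), Egr3 (1.04), Egr4 (1.19), Zfp36 (1.199) and Cxcl2 (1.53). For Egr1 they were Zfp36 (0.29), Egr4 (0.49), Mir24-2 (0.56), Cxcl2 (0.59) and Egr3 (0.59). Among the members themselves, Fosb was nearest to Fos (0.69) and Ier2 to Egr1 (0.68). Each of these measures rests mostly on the gap between batch C and the other libraries. Egr4 stayed at or below 0.0844 CPM in all libraries of batches A and B, under the 3 counts taken as the floor, and was at 5.53, 5.63 and 4.13 CPM in batch C. The chemokine gene Cxcl2 was at 0 to 0.27 CPM in batches A and B and at 4.88, 7.53 and 4.42 CPM in batch C.

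Markers of other cells were read beside these results. The 12 macrophage and leukocyte markers summed to 145 to 169 CPM in batch C old MSCs, to 846 to 1205 CPM in batch B old, to 410.0 to 839 CPM in batch B young and to 730 to 1633 CPM in batch A young. None was at 0, and 12 of 12 were called lower in batch C than in batch B, the opposite direction to the immediate early genes. Over all genes 5104 of the 15651 tested were called lower, and 64.7% were called in either direction. The 6 endothelial markers summed to 5.69 to 10.6 CPM in batch C and to 2.604 to 5.74 CPM in the other groups, 3 of them were tested between batches C and B, and 0 were called (1 at an unadjusted p below 0.05, edgeR). The 5 erythroid markers summed to at most 3.84 CPM, with 4 at 0 in batch C and 5 at 0 in batch A. All 11 MSC markers had counts in every group. They summed to 90210 to 100000 CPM in batch A young, 46020 to 75730 CPM in batch B young, 41000 to 43270 CPM in batch B old and 36300 to 38420 CPM in batch C, mostly from the collagen genes Col1a1 (18960 CPM in batch C) and Col1a2 (15500 CPM). Between batches C and B 4 of the 11 were higher, among them Pdgfra (1.23, SE 0.08), which encodes the sort marker CD140a, and 3 were lower, among them Ly6a (-1.06, SE 0.08), which encodes Sca-1. Calls among all tested genes were again 64.7% in either direction, and 32.1% higher. Mitochondrial transcripts made up 7878 to 9493 CPM in batch A young, 9940 to 18690 CPM in batch B young, 13050 to 37180 CPM in batch B old and 11140 to 11790 CPM in batch C. The part of these cell types and transcripts in the level of the immediate early genes was not tested.

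**Figure D5:**
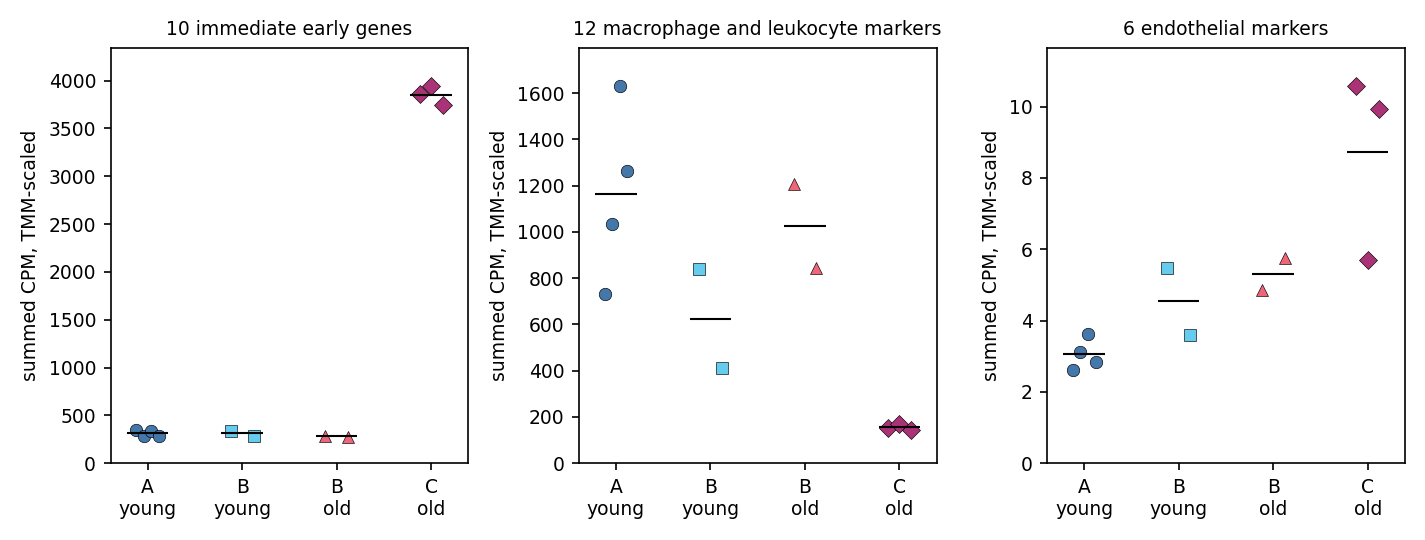
Summed TMM-scaled CPM per library (points) and group means (bars) for the 10 immediate early genes, 12 macrophage and leukocyte markers and 6 endothelial markers, each axis starting at 0. The immediate early sum is highest in the 3 batch C libraries (3741 to 3948 CPM), where the macrophage sum is lowest (145 to 169 CPM).

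Total counts ran from 11969336 to 20315934 per library, and batch C had 11969336 to 14631100. The CPM levels given here are already scaled to library size. The floor of 3 counts was 0.16 to 0.25 CPM. Fos lies at chr12:85473890-85477273 (+ strand), Fosb at chr7:19302696-19310051 (- strand), Jun at chr4:95049034-95052222 (- strand) and Junb at chr8:84974484-84978718 (- strand). All 10 genes are protein coding, and 3 of them, Jun, Junb and Ier2, have a single exon in their longest transcript (GENCODE M21, GRCm38). Whether counting used strand is not given for these libraries. Jun shares 232 of its 3189 exonic bases with Junos on the opposite strand, which was at 3.80 CPM in batch A young, 3.73 CPM in batch B young, 1.54 CPM in batch B old and 3.90 CPM in batch C old, so that from batch B old to batch C it went the same way as Jun, at a far lower level. Junb shares 173 of 2301 exonic bases with Prdx2, which was lower in batch C (117 CPM) than in batch B old (284 CPM), the opposite direction to Junb. Atf3 holds Gm24748 on the opposite strand within its span.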

How the data were processed

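PolyA RNA of 11 MSC libraries was measured. The authors deposited raw counts per Ensembl gene. Per the labels the build was mm10 (GRCm38). Aligner, counter and strand setting for these libraries are not given in the sources used here. The 10 members and all gene lists were chosen with earlier results of these data known. Groups came from sample titles. Libraries were compared pairwise, and no 2 were duplicates. Counts were tested with edgeR 4.0.16 in R 4.3.3 (quasi-likelihood F test, TMM factors, filterByExpr minimum count of 5, Benjamini-Hochberg adjustment over all tested genes, threshold 0.05). Age was fitted with batch over 11 libraries, batch B against A over the 6 young and batch C against B over the 5 old libraries. CPM values used TMM-scaled totals, and likeness used log2 CPM with a prior count of 2. Annotation was GENCODE M21, matched for 28179 of 28222 genes, and promoters came from RefSeq. On simulated counts for the age fit (15833 genes) edgeR recovered 88% of genes changed 2-fold, with 2.76% false calls. The simulation gave every gene the same dispersion of 0.015, so these rates need not hold for the real libraries. DESeq2 1.42.0, limma 3.58.1, other scalings and filters, length and GC offsets, left-out libraries, no batch term and a replicate block were tried as alternatives. Named genes were all members in every comparison, up to 5 genes per direction with the smallest p among called genes of the lists, and the 5 most similar profiles to Fos and Egr1, leaving out predicted genes. Genes of these lists outside the rule are given as picked after their values were seen. Total counts ranged from 11969336 to 20315934, so that low levels rest on few counts. Fit of batches A and B without C was added after seeing the data.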

Additional observations from a re-analysis of the deposited data

How the results depend on the processing

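Between batches C and B all 10 genes were called higher under every alternative run, and leaving out each library gave 10 to 10. With total-count scaling, 44.8% of all genes called for age were higher (31.1% with TMM factors), and 66.4% between young batches (51.9%). For age, where 0 of 10 were called, the count was 1 with total-count scaling or a minimum count of 10 (Egr2), 1 with DESeq2 or limma-trend (Fosb), 2 with no filter or the length and GC correction (Fosb, Egr2), 8 with no batch term, and 0 to 3 with a library left out. Without batch B young replicate 2 it was 3 (Fosb, Klf2, Klf4), and without batch A young replicate 1 it was 2 (Fosb, Egr2). With batches A and B only, a fit chosen after seeing the data, 0 were called and Fosb and Egr2 had adjusted p of 0.215 and 0.235 (edgeR). Over all genes, the calls for age were 335 with total-count scaling, 362 with a minimum count of 10, 370 with limma-trend and 528 with the length and GC correction. All genes called for age went from 360 to 1094 with no filter, 584 with DESeq2, 123 in batch B alone, 174 without batch C, 2641 with no batch term and 84 to 2007 with a library left out. Between young batches 1 member was called, or 0 without batch B young replicate 2 (range 0 to 1), and all genes called were 2686 against 511 to 4031 with a library left out. The replicate block called 0 members for age, 1 between young batches and 10 between old batches, and 294, 729 and 9154 genes in all. Same-numbered libraries had deviations from their group means correlated at -0.11 to 0.04. With 2 libraries in each group of batch B, this cannot decide whether the numbers pair them. Directions of age differences turned: with total-count scaling Jun 0.033 and Egr1 0.034, with the length and GC correction Jun 0.027 and Egr1 0.11, with no batch term Fosb 6.96, Jun 2.14, Egr1 3.94, Klf2 0.85 and Klf4 0.51. With a library left out, age differences ran from -0.012 to 0.76 for Fos, -0.11 to 0.051 for Jun, -0.059 to 0.16 for Junb, -0.16 to 0.096 for Egr1 and -0.082 to 0.14 for Ier2. Between young batches Fos turned to 0.065 with total-count scaling, 0.032 with limma-trend and 0.0064 with the length and GC correction, Klf4 turned to -0.023 with the replicate block, and with a library left out Fos ran from -0.15 to 0.16, Jun from -0.031 to 0.13 and Klf4 from -0.074 to 0.24. The cause of these changes was not tested. Low counts limited Egr2, Fosb and Fos in batches A and B.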
